A study of Mus musculus with 6 samples.

Results

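The 41 mouse genes described here drive the cell cycle or hold it back: 23 are drivers and 18 are inhibitors. The drivers are cyclins, cyclin-dependent kinases (CDKs), Cdc25 phosphatases, activator E2F transcription factors, Skp2, Myc, Foxm1 and Mybl2. The 41 genes form a list of named genes grouped by their known function, and 40 of them had a probe on the array. Of these 40, 39 were measured well enough to be tested, among 15535 genes tested in all. Skp2, the subunit of the SCF ubiquitin ligase that marks p27 for destruction, had no probe that could be matched by its accession.

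The cells were MC3T3-E1, a pre-osteoblast line from mouse that can divide or mature towards bone-forming cells. They were grown for 3 days in 24-well plates on 1 of 2 metal scaffolds. The FeMnSi group (n = 3) grew on the original scaffold, and the De-HA group (n = 3) on a scaffold that was dealloyed and then given a bioactive coating, so dealloying and coating differ together between the groups and cannot be told apart. No culture without a scaffold was among the samples used. Total RNA was labelled with Cy3 and hybridised to 1 Agilent array per sample. The labels do not say that the 3 samples of a group were separate cultures, and the p-values below therefore rest on the spread among these 6 samples alone, which may be technical.

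D-type cyclins with Cdk4 and Cdk6, followed by cyclin E with Cdk2, phosphorylate the retinoblastoma family of pocket proteins, which releases activator E2Fs to transcribe the genes of DNA synthesis. Cyclin A and cyclin B with Cdk2 and Cdk1 then carry the cell through S phase and mitosis. Cip/Kip and INK4 proteins, the pocket proteins and the repressor E2Fs hold these steps back, and osteoblast precursors commonly leave the cycle as they mature.

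Several of these genes carry known kinds of promoter element. E2F proteins bind E2F sites, while the CHR element and CCAAT boxes are typical of genes of G2 and mitosis. Promoters from RefSeq (GRCm38.p6) were found for 29 of the 41 genes, and the 250 bases before each start were searched on both strands. The letters searched were TTCCCGC or TTGGCGC or TTCGCGC for an E2F site, TTTGAA or TTCGAA for CHR, and the letters of CCAAT itself. The promoters of 9 genes are shown, all those in the table whose genes passed the test below, 7 of them lower and Cdk6 and E2f6 higher in De-HA. E2f2 has 2 promoters in the table, of which the one farther upstream is shown. The sequences run 5′ to 3′ on the strand of the gene and end at the base before the start, with each match in capitals. In Ccnb1 and E2f8 an E2F match and a CCAAT match on the opposite strand overlap, and the capitals run together.
E2f2 (chr4:136172024-136172273, plus strand): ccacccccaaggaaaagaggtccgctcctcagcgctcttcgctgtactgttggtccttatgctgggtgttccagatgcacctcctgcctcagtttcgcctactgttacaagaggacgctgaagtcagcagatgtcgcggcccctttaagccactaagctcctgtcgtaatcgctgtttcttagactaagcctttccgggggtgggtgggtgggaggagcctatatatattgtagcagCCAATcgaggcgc
E2f1 (chr2:154569427-154569676, minus strand): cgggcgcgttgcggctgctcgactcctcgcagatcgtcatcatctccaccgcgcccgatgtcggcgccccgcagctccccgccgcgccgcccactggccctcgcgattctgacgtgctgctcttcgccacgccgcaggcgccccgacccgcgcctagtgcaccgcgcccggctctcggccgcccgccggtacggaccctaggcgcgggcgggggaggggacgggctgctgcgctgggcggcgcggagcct
Ccnb1 (chr13:100786487-100786736, minus strand): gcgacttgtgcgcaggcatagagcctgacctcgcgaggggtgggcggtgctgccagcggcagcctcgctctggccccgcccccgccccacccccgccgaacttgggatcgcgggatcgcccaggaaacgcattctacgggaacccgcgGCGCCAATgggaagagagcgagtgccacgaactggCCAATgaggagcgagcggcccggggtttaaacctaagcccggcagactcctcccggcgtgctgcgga
Ccnb2 (chr9:70421555-70421804, minus strand): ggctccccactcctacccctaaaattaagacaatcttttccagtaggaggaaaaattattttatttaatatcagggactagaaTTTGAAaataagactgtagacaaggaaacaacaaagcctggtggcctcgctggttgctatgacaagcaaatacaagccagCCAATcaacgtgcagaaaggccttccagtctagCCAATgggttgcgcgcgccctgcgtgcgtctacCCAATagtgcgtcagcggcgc
Cdkn3 (chr14:46760291-46760540, plus strand): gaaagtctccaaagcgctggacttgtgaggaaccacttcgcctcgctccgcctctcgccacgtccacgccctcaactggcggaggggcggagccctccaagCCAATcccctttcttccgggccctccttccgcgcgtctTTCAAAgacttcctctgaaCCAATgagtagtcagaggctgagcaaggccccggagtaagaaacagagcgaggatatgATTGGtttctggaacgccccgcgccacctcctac
Rbl1 (chr2:157204535-157204784, minus strand): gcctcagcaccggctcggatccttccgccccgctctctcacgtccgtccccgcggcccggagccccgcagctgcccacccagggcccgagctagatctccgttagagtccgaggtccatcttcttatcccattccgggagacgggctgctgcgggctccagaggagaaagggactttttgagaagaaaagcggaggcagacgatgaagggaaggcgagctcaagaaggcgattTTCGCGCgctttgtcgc
E2f8 (chr7:48881597-48881846, minus strand): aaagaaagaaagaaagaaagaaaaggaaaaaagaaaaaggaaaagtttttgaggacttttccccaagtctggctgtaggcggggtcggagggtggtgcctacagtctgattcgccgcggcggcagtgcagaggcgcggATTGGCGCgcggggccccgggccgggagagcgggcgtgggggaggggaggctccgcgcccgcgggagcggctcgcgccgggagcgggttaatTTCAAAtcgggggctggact
Cdk6 (chr5:3343643-3343892, plus strand): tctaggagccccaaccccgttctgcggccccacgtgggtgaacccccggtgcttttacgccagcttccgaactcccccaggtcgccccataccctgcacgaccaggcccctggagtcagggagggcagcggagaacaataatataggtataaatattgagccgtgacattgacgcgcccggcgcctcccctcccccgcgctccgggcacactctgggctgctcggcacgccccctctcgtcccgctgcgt
E2f6 (chr12:16810715-16810964, plus strand): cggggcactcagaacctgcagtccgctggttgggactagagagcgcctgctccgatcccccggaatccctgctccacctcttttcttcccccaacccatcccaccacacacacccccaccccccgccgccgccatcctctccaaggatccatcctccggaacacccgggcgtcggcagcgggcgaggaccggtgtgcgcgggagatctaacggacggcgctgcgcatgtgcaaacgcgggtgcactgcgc
E2f2 had the smallest p of the 39 tested genes. The promoter shown for it held 1 CCAAT match, 13 bases before the start, and no E2F or CHR match, while its other promoter held 1 CHR and 3 CCAAT matches. E2f8 held a match to each motif, with the E2F match beginning 111 bases and the CHR match 20 bases before the start. The E2F match of Rbl1 began 17 bases before its start. The CHR match began 167 bases before the start in Ccnb2 and 111 bases before it in Cdkn3. No match was found in these 250 bases of E2f1, the 1 lower gene shown with none, or of Cdk6 and E2f6. For E2f1 only 1 start was given, and the bases shown before it read in part as protein-coding sequence of E2f1 itself. That start thus lies within the gene. Bases before any other start of E2f1 were not searched, so its lack of a match holds for this stretch alone. It says nothing of the promoter upstream of the coding sequence. In the counts below, of the 29 genes and of the 7 lower genes, E2f1 stands as a gene without a match. Counting a match in any promoter of a gene, 10 of the 29 genes with a promoter held an E2F match (34.5%), against 7.68% of all 27025 genes in the table and 12.1% of the tested genes. CHR matches were found in 10 of the 29 (34.5%, against 19.6% of all genes), and CCAAT in 16 (55.2%, against 37.5%). Of the 7 genes with a promoter that were lower in De-HA by the test below, 3 held an E2F match, 4 a CHR match and 5 a CCAAT match. Of the 18 with a promoter that were tested and did not pass, 7 held E2F, 4 CHR and 10 CCAAT. Over promoters in place of genes, 6.69% of all 32851 held E2F, 17.1% CHR and 33.8% CCAAT. A match is a match of letters and shows no binding.

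All 9 genes of G2 and mitosis had lower signal on De-HA, 4 of them past the test, and the activators E2f1 and E2f2 fell, as did Wee1, a kinase that inhibits Cdk1, and the repressor E2f8. Cdk6 and the repressor E2f6 rose. Levels are given as scaled log2 signal, in which each array was shifted to the same 75th percentile, so a difference of 1 is 2-fold. A gene passed where its Benjamini-Hochberg adjusted p, over all 15535 genes in limma, was under 0.05. By that test 12 of the 39 genes passed, 10 lower and 2 higher in De-HA, while 10.7% of all tested genes passed, 4.29% lower and 6.46% higher. The median log2 fold change (De-HA minus FeMnSi) of the 39 genes was -0.20, against 0.10 over all tested genes. Of the 39, 24 had a negative and 15 a positive change, against 36.9% and 63.1% of all genes. At an unadjusted p under 0.05, 23 of the 39 passed, against 33.6% of all genes. In 18 of the 39 all De-HA arrays lay below all FeMnSi arrays (13.7% of all genes) and in 6 above them (25.4%), and in 8 the groups were apart and at least 1.5-fold different (8.16%). The drivers gave 7 of 22 past the threshold, 6 lower and 1 higher, with a median of -0.35. The inhibitors gave 5 of 17, 4 lower and 1 higher, with a median of -0.05.

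**Figure D1:**
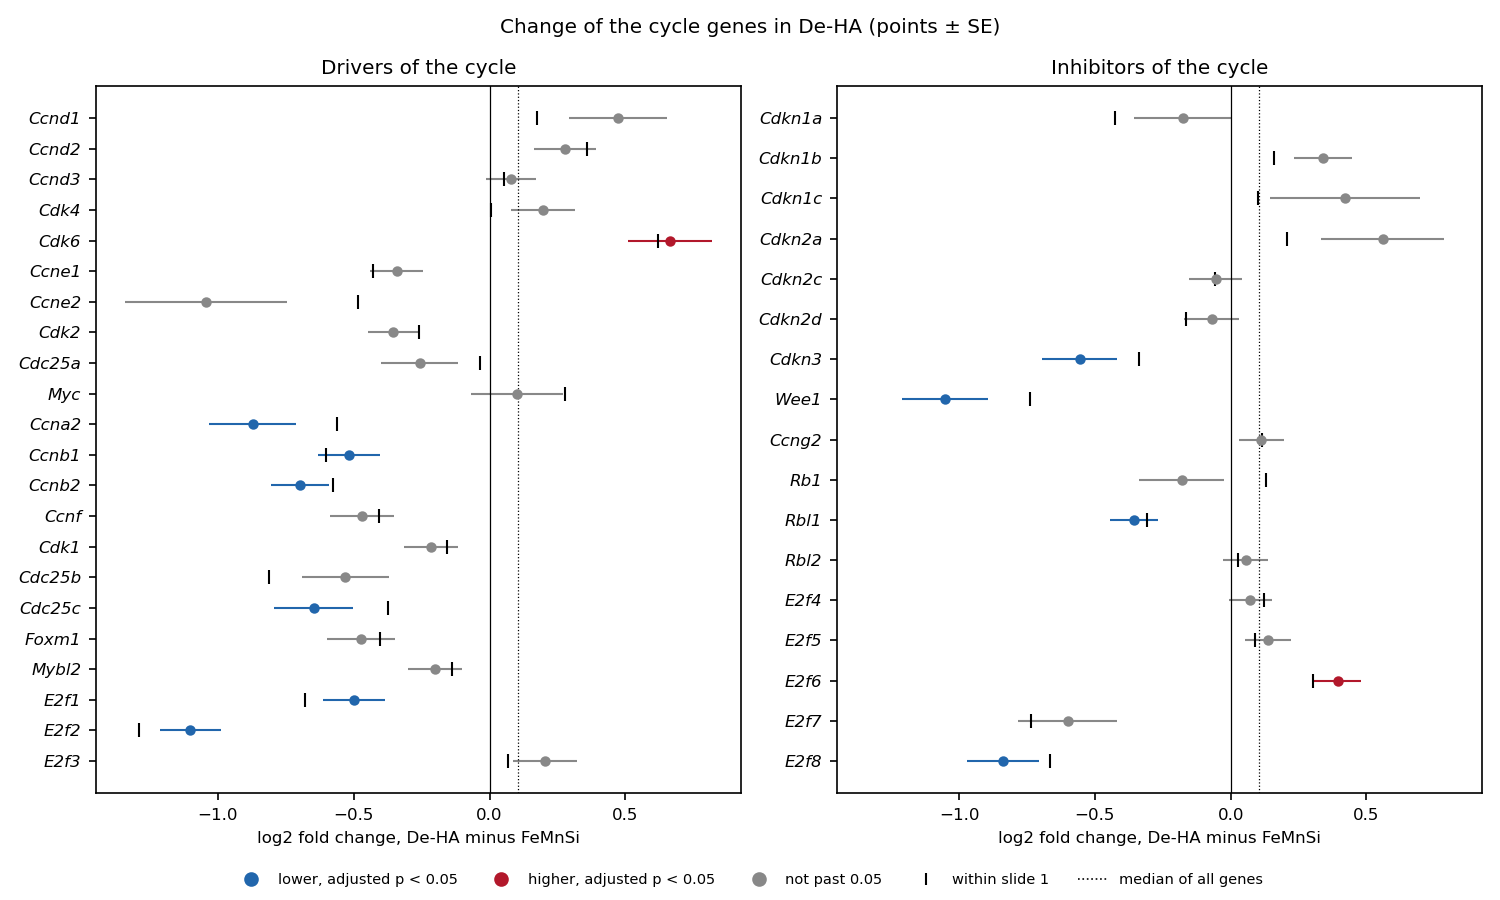
Log2 fold change (De-HA minus FeMnSi, x axis) of each tested gene with its standard error, drivers on the left and inhibitors on the right. Blue points passed lower, red points higher and grey points did not pass, black ticks are the change within slide 1, and the dotted line is the median of all tested genes (0.10). The genes from Ccna2 to Mybl2 all lie left of zero, and the D cyclins with Cdk4 and Cdk6 all lie right of it.

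The count depended on single arrays and on the slide. Without De-HA 1, De-HA 2 or De-HA 3, 4, 3 and 1 of the 39 genes passed, against 3.3%, 2.41% and 1.51% of all genes. Without FeMnSi 1, FeMnSi 2 or FeMnSi 3, 19, 2 and 1 passed, against 29.7%, 3.37% and 1.46%. E2f2 passed in all 6 of these fits, and the other 11 of the 12 genes passed in 3 or fewer, as given below. By the scan records in the files, De-HA 1, 2 and 3 and FeMnSi 1 shared a scan, and FeMnSi 2 and 3 another, and each scan was taken as 1 slide. Without FeMnSi 1 each group therefore lay on its own slide, and group and slide cannot be told apart in that fit. A call kept without FeMnSi 1, here and below, does not show that it holds apart from the slide. In a fit that takes the slide as a block, E2f2 alone passed (1 of 39, lower, against 1.16% of all genes, 0.502% lower and 0.657% higher). At an unadjusted p under 0.05 in that fit 14 of the 39 passed. The share over all genes was not worked out there, so this count is not read as a result about the 39. That block, or the change within slide 1, compares the De-HA arrays with FeMnSi 1 alone, and the within-slide median of the 39 genes was -0.16.

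The 9 genes of G2 and mitosis were all lower in De-HA, with a median log2 fold change of -0.52. On the brightest probe of each of the 9, every De-HA array lay below every FeMnSi array, against 13.7% of all genes. By the test 4 of the 9 passed lower, against 4.29% of all genes. Within slide 1, where FeMnSi 1 alone stands for its group, the median change of the 9 was -0.41, against 0.05 over all genes. The median deviation of these 9 genes from their own mean over the arrays was -0.39, -0.13 and -0.27 on De-HA 1, 2 and 3. On FeMnSi 1, 2 and 3 it was 0.17, 0.28 and 0.27.

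Ccnb2 encodes a B-type cyclin that activates Cdk1 at the entry into mitosis. De-HA arrays 1 to 3 gave a scaled log2 signal of 11.29, 11.56 and 11.48, and FeMnSi arrays 1 to 3 gave 12.02, 12.22 and 12.19; values below keep this order of arrays. The groups did not overlap, and Ccnb2 fell by 0.70 ± 0.11 (SE; 1.62-fold, adjusted p = 0.0148), with -0.58 within slide 1. Its promoter above holds CHR and CCAAT matches. The call was kept without De-HA 1, De-HA 2 or FeMnSi 1 and lost without De-HA 3, FeMnSi 2 or FeMnSi 3.

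Ccna2, cyclin A, acts both in S phase and at the entry into mitosis. It read 11.12, 11.28 and 11.06 (De-HA) against 11.72, 12.32 and 12.05 (FeMnSi). FeMnSi 1 was the lowest of its group, and all De-HA arrays were below it. Ccna2 fell by 0.87 ± 0.16 (1.83-fold, adjusted p = 0.0247), and by 0.56 within slide 1.

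Ccnb1, the other B-type cyclin, read 11.79, 12.13 and 11.97 (De-HA) against 12.57, 12.39 and 12.49 (FeMnSi). The groups were apart, with De-HA 1 lowest. Ccnb1 fell by 0.52 ± 0.11 (1.43-fold, adjusted p = 0.0367), with -0.60 within slide 1.

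Cdc25c, a phosphatase that removes the inhibitory phosphates from Cdk1, read 6.19, 6.09 and 6.05 (De-HA) against 6.48, 7.03 and 6.76 (FeMnSi). The De-HA arrays lay close together and below FeMnSi 1, the lowest of the other group. Cdc25c fell by 0.65 ± 0.15 (1.57-fold, adjusted p = 0.0392), with -0.37 within slide 1. The calls of Ccna2, Ccnb1 and Cdc25c were each lost without any 1 of the arrays other than FeMnSi 1. That of Cdc25c was also lost under normexp on the subtracted signal (-0.33, adjusted p = 0.0554).

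Foxm1, a transcription factor of the G2 and mitosis genes, read 8.64, 8.93 and 8.92 (De-HA) against 9.23, 9.48 and 9.19 (FeMnSi). The groups were apart, but its change of -0.47 ± 0.13 did not pass (adjusted p = 0.0592, within slide 1 -0.40). Cdk1, the kinase of mitosis, read 13.22, 13.45 and 13.21 (De-HA) against 13.45, 13.57 and 13.51 (FeMnSi). De-HA 2 came within a small margin of FeMnSi 1, and the change of -0.22 ± 0.10 did not pass (adjusted p = 0.172, within slide 1 -0.16). Groups that were apart without passing were also seen for Cdc25b, another CDK phosphatase (-0.53, adjusted p = 0.0764), for Ccnf, cyclin F of an SCF ligase (-0.47, adjusted p = 0.0517), and for Mybl2, which joins the complex that transcribes mitotic genes (-0.20, adjusted p = 0.197).

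**Figure D2:**
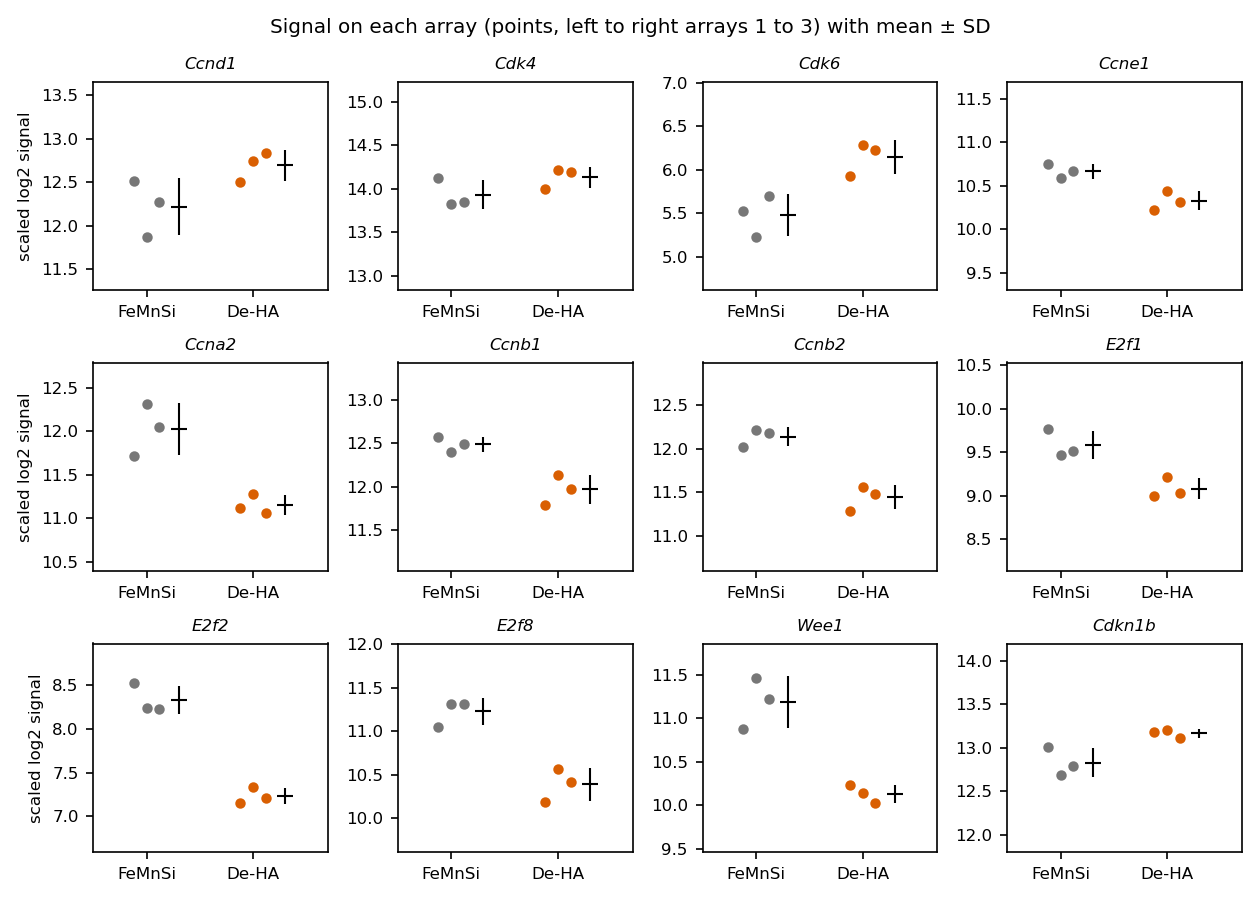
Scaled log2 signal (y axis) on each array for 12 of the genes, FeMnSi in grey and De-HA in orange, arrays 1 to 3 from left to right, with the mean and SD (n = 3) beside each group. Every panel spans the same number of log2 units. The De-HA points of Ccne1, Ccna2, Ccnb1, Ccnb2, E2f1, E2f2, E2f8 and Wee1 all lie below the FeMnSi points, and those of Cdk6 and Cdkn1b above them.

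The activator E2Fs turn on the genes of DNA synthesis once the pocket proteins let them go. E2f2 read 7.15, 7.33 and 7.21 (De-HA) against 8.52, 8.24 and 8.23 (FeMnSi). All De-HA arrays lay below all FeMnSi arrays, with FeMnSi 1 highest. E2f2 fell by 1.10 ± 0.11 (2.15-fold, adjusted p = 0.00528), and by 1.29 within slide 1. Its adjusted p was 0.0169 once the slide was a block in the fit. Its adjusted p without any 1 array was at most 0.0395.

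E2f1 read 9.00, 9.22 and 9.03 (De-HA) against 9.76, 9.47 and 9.51 (FeMnSi). The groups were apart, and it fell by 0.50 ± 0.12 (1.41-fold, adjusted p = 0.0419), with -0.68 within slide 1. This call was lost without any 1 array other than FeMnSi 1. E2f3, the other activator, had a change of 0.20 (adjusted p = 0.254) with overlapping groups.

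The D cyclins and their kinases stood on the other side of zero: 5 of 5 had a positive change, against 63.1% of all genes. The median of the 5 was 0.28, against 0.10 over all genes, and 1 passed higher, against 6.46% of all genes. The median deviation of these 5 genes was 0.04, 0.18 and 0.24 across the De-HA arrays, against -0.02, -0.20 and -0.18 across the FeMnSi arrays. Cdk6, the partner kinase of D cyclins, read 5.92, 6.28 and 6.23 (De-HA) against 5.52, 5.22 and 5.70 (FeMnSi). De-HA was above FeMnSi on every array, and Cdk6 rose by 0.66 ± 0.15 (1.58-fold, adjusted p = 0.0426), with 0.62 within slide 1. This call was lost without any 1 array other than FeMnSi 1 and held under normexp (adjusted p = 0.0353) but not under quantile normalization, median scaling or in the series matrix (highest adjusted p = 0.0963).

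Ccnd1, cyclin D1, responds to growth factors and acts in the G1 phase. It read 12.50, 12.75 and 12.84 (De-HA) against 12.52, 11.87 and 12.27 (FeMnSi). FeMnSi 1 overlapped De-HA 1, and the change of 0.47 ± 0.18 did not pass (adjusted p = 0.123, within slide 1 0.18). Cdk4 read 14.00, 14.21 and 14.19 (De-HA) against 14.13, 13.83 and 13.85 (FeMnSi). The groups overlapped, with a change of 0.20 ± 0.12 (adjusted p = 0.264), and the change within slide 1 was close to zero (0.0050). Ccnd2 and Ccnd3, the other D cyclins, had changes of 0.28 (adjusted p = 0.140) and 0.08 (adjusted p = 0.562). The changes of Cdk4 and Ccnd3 became negative under quantile normalization and in the series matrix, and that of Ccnd3 under median scaling as well.

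Genes of the step into S phase mostly had negative changes, none past the threshold. Of the 5 tested, 4 were below zero, against 36.9% of all genes, with a median of -0.34. At an unadjusted p under 0.05, 3 of the 5 passed, against 33.6% of all genes. Ccne1, cyclin E1, read 10.22, 10.44 and 10.31 (De-HA) against 10.75, 10.58 and 10.67 (FeMnSi). The groups were apart, and the change was -0.34 ± 0.10 (adjusted p = 0.0675, within slide 1 -0.43). Cdk2, the kinase bound by cyclins E and A, read 8.10, 7.94 and 7.99 (De-HA) against 8.27, 8.45 and 8.38 (FeMnSi). It also did not overlap, with a change of -0.36 ± 0.09 (adjusted p = 0.0569, within slide 1 -0.26). Ccne2, the second E cyclin, had a change of -1.04 (adjusted p = 0.0682) with overlapping groups. The phosphatase Cdc25a had -0.26 (adjusted p = 0.231). Myc, the transcription factor of growth, read 8.80, 8.78 and 9.21 (De-HA) against 8.65, 9.11 and 8.73 (FeMnSi). Its arrays were mixed between the groups, and the change was 0.10 ± 0.17 (adjusted p = 0.695, within slide 1 0.28).

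Inhibitors of the CDKs divided between those that fell and those that did not pass. Wee1 is the kinase that phosphorylates and holds back Cdk1. It read 10.23, 10.15 and 10.02 (De-HA) against 10.87, 11.46 and 11.22 (FeMnSi). The groups were well apart, and Wee1 fell by 1.05 ± 0.16 (2.07-fold, adjusted p = 0.0138), with -0.74 within slide 1. The call was kept without De-HA 1, FeMnSi 1 or FeMnSi 2. Cdkn3, a phosphatase that acts on CDKs, read 7.63, 7.63 and 7.50 (De-HA) against 7.93, 8.42 and 8.09 (FeMnSi). It fell by 0.56 ± 0.14 (1.47-fold, adjusted p = 0.0494), with -0.34 within slide 1, and was lost without any 1 array other than FeMnSi 1. With outlier spots kept its adjusted p was 0.0505. Ccng2, a cyclin linked to arrest, had a change of 0.11 (adjusted p = 0.353), with the groups apart.

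The Cip/Kip and INK4 proteins bind and stop CDKs directly, and none of those tested passed (0 of 6, with 1 Cip/Kip and 1 INK4 gene at an unadjusted p under 0.05). Cdkn1b, p27, read 13.18, 13.21 and 13.11 (De-HA) against 13.01, 12.68 and 12.79 (FeMnSi). De-HA was above FeMnSi on every array, with a change of 0.34 ± 0.11 that did not pass (adjusted p = 0.0842, within slide 1 0.16). Cdkn1a, p21, a target of p53, read 8.94, 9.47 and 9.42 (De-HA) against 9.70, 9.42 and 9.25 (FeMnSi). Its highest value was on FeMnSi 1 and its lowest on De-HA 1, and the change was -0.18 ± 0.18 (adjusted p = 0.507, within slide 1 -0.43). Cdkn1c, p57, had a change of 0.42 (adjusted p = 0.303).

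Of the INK4 genes, Cdkn2c and Cdkn2d had changes of -0.05 (adjusted p = 0.710) and -0.07 (adjusted p = 0.646). Cdkn2a had a change of 0.56 (adjusted p = 0.138), but its probe was above background on 2 De-HA arrays and 1 FeMnSi array, and its Ink4a and Arf products are not separated here. The 2 probes of Cdkn2b were well above background on no array, and it was not tested.

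The pocket proteins bind E2Fs and silence them. Rbl1, p107, read 8.50, 8.58 and 8.44 (De-HA) against 8.81, 8.95 and 8.82 (FeMnSi). The groups were apart, and Rbl1 fell by 0.36 ± 0.09 (1.28-fold, adjusted p = 0.0497), with -0.31 within slide 1. This call was just past the threshold and lost without any 1 array other than FeMnSi 1. Under median scaling the adjusted p of Rbl1 was 0.0504. Rb1, the retinoblastoma protein, read 9.46, 9.45 and 9.49 (De-HA) against 9.34, 9.95 and 9.65 (FeMnSi). The De-HA arrays were nearly equal and lay inside the FeMnSi range, with a change of -0.18 ± 0.16 (adjusted p = 0.433) that was 0.13 within slide 1. Rbl2, p130, had a change of 0.05 (adjusted p = 0.664).

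Repressor E2Fs went in both directions. E2f8, an atypical E2F that binds DNA without a partner, read 10.18, 10.57 and 10.42 (De-HA) against 11.05, 11.32 and 11.31 (FeMnSi). The groups were apart, and E2f8 fell by 0.84 ± 0.13 (1.79-fold, adjusted p = 0.0159), with -0.67 within slide 1. It was kept without De-HA 1, De-HA 2 or FeMnSi 1. E2f7, the other atypical member, read 10.89, 11.58 and 11.30 (De-HA) against 11.99, 11.87 and 11.71 (FeMnSi). De-HA 1 was the lowest, and the change of -0.60 ± 0.18 (1.52-fold) did not pass (adjusted p = 0.0773, within slide 1 -0.73). A dimmer probe of E2f7 went the other way (0.26), also with its groups apart, so the direction of E2f7 depends on the probe. E2f6, which represses through Polycomb-type complexes, read 12.48, 12.47 and 12.47 (De-HA) against 12.17, 11.99 and 12.08 (FeMnSi). It rose by 0.39 ± 0.09 (1.31-fold, adjusted p = 0.0361), with 0.30 within slide 1. That call was lost without any 1 array other than FeMnSi 1 and held under normexp (adjusted p = 0.0175) but not in the 3 other scalings named for Cdk6 (highest adjusted p = 0.106). E2f4 and E2f5, the partners of the pocket proteins in resting cells, had changes of 0.07 (adjusted p = 0.531) and 0.14 (adjusted p = 0.273).

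**Figure D3:**
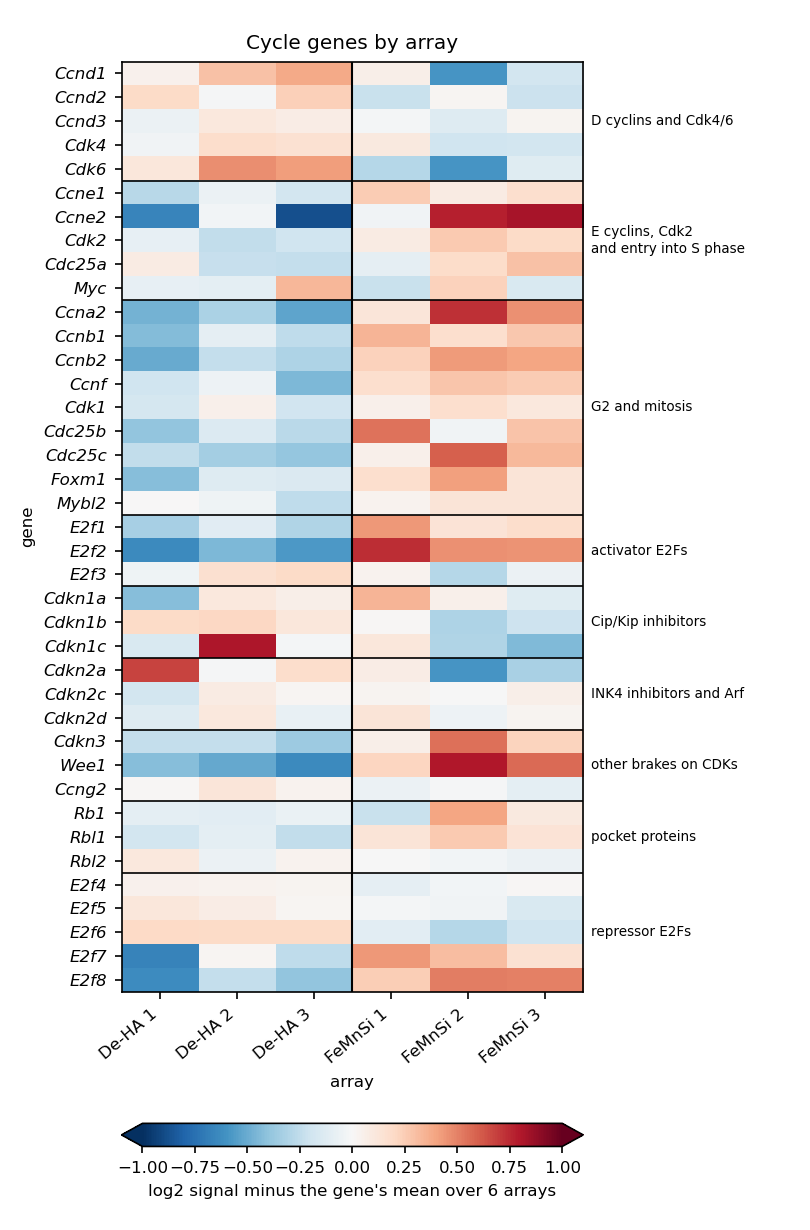
Log2 signal of each tested gene minus its own mean over the 6 arrays (colour, blue lower and red higher), with arrays in columns and genes grouped by role in rows. The G2 and mitosis rows are blue or near white on the 3 De-HA arrays and red or near white on the 3 FeMnSi arrays.

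The choice of probe mattered for some genes. Of the 56 probes of the 41 genes on the array, 53 were well above background on at least 3 arrays, and 11 of them passed in a fit over all 28175 probes, all lower in De-HA, against 6.91% of all probes, 2.57% lower and 4.34% higher. In this fit the probes that stand for Cdk6, E2f6, E2f1, Cdkn3 and Rbl1 did not pass (adjusted p = 0.053, 0.052, 0.055, 0.062 and 0.068), though their genes did above. For 11 genes more than 1 probe was kept. Every Ccnb1 probe was lower, at -0.52, -1.01 and -1.10 (adjusted p = 0.049, 0.033 and 0.025), and each had its groups apart. Of the 2 probes of Rbl1, the brighter gave -0.36 (adjusted p = 0.068) and the dimmer -1.13 (adjusted p = 0.011). Mybl2 likewise gave -0.20 (adjusted p = 0.224) and -1.01 (adjusted p = 0.019), so the probe that stands for the gene did not pass and the other did.

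For 4 genes the probes had different signs. Cdk4 had 0.20, 0.23 and -0.29, E2f3 0.20 and -0.01, Cdkn1a -0.18 and 0.23, and E2f7 -0.60 and 0.26. None of these probes passed, but the groups were apart for both E2f7 probes, in opposite directions, and for the Cdk4 probe at -0.29. The remaining genes with several probes, Ccne1 (-0.34 and -0.13), Cdk1 (-0.22, -0.07 and -0.44), Foxm1 (-0.47 and -0.19) and Ccnd3 (0.08 and 0.10), kept 1 sign in each. On the dimmer Cdk1 probes (-0.07 and -0.44) the groups overlapped.

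**Figure D4:**
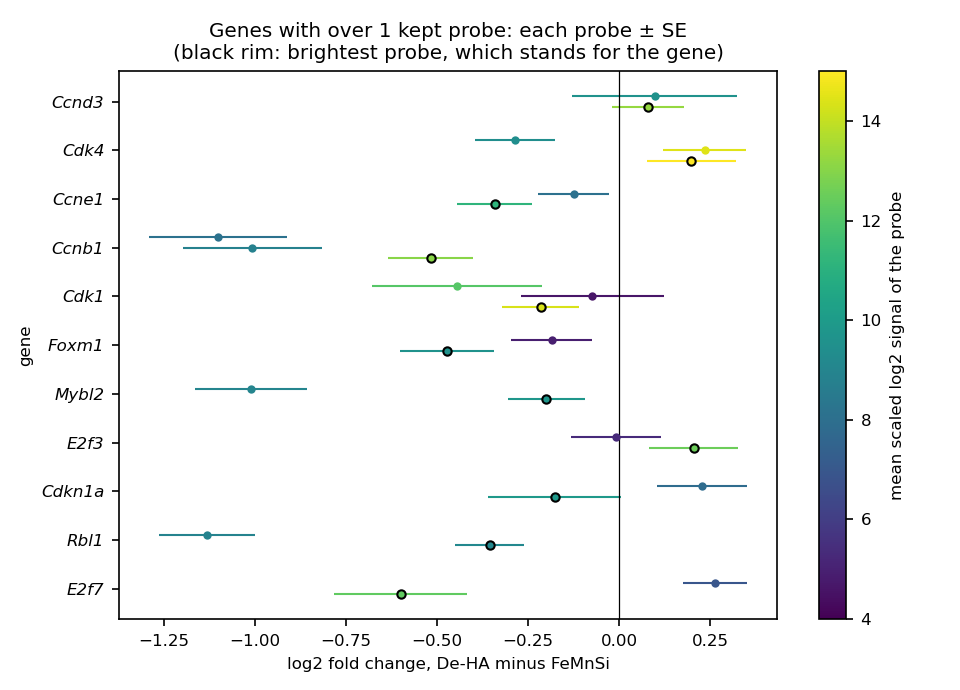
Log2 fold change of every kept probe (x axis, with SE) for the 11 genes with more than 1, coloured by mean signal, with a black rim on the brightest probe, which stands for the gene. The 3 Ccnb1 probes lie left of zero, while probes of Cdk4, E2f3, Cdkn1a and E2f7 fall on both sides.

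The other genes of the pathway were counted in fixed lists that leave out the 41 genes. Over all lists 39 of 130 tested genes passed, 35 lower and 4 higher, and the median log2 fold change was -0.17. Of all 15535 genes tested, 10.7% passed, 4.29% lower and 6.46% higher, with a median of 0.10. The E2F targets of DNA synthesis had 13 of 19 lower and 0 higher, with a median of -0.69. Mcm5, Mcm7 and Mcm3, of the helicase that opens replication origins, fell by 1.01 (adjusted p = 0.00242), 1.01 (adjusted p = 0.0039) and 0.88 (adjusted p = 0.0066), and 5 genes of this list, these 3 among them, also passed in the fit with a slide term. Pcna, the sliding clamp, had -0.23 (adjusted p = 0.142), and Mcm2 was not tested because its spot on 1 array was marked as an outlier. Among mitotic and checkpoint kinases, 10 of 16 fell and 0 rose, with a median of -0.63. Nek2, a centrosome kinase, fell by 1.03 (adjusted p = 0.0119), Pkmyt1, a kinase that inhibits Cdk1 as Wee1 does, by 0.63 (adjusted p = 0.0161), and Pbk by 0.70 (adjusted p = 0.0181). Proliferation markers had 6 of 11 lower and 0 higher, with a median of -0.52. Kif20a, Kif11 and Tpx2, of the mitotic spindle, fell by 0.75 (adjusted p = 0.0132), 0.73 (adjusted p = 0.0136) and 0.80 (adjusted p = 0.0186), and Mki67 fell by 0.50 (adjusted p = 0.0281).

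The DREAM complex holds cycle genes silent in resting cells and joins E2F partners. The list of genes of this complex, E2F partners and related regulators had 10 tested genes. Of these, 3 were lower (4.29% of all genes) and 1 higher (6.46%), with a median of -0.09. Lin9 fell by 0.75 (adjusted p = 0.0146) and Lin54 by 0.60 (adjusted p = 0.0165), and Dyrk1b, a kinase that promotes quiescence, rose by 0.48 (adjusted p = 0.029). Among APC/C and SCF genes, which make the ubiquitin ligases of the cycle, 3 of 21 fell (4.29% of all genes) and 0 rose (6.46%), with a median of 0.06. These were Ube2c (-0.88, adjusted p = 0.0206), Fbxo5 (-0.90, adjusted p = 0.0261) and Cdc20 (-0.52, adjusted p = 0.0353). Other cyclins, CDKs and their partners had 1 of 28 past, against 10.7% of all genes, with a median of -0.03. Cdk8, a kinase of the Mediator complex, rose by 0.45 (adjusted p = 0.0274). In the p53 list 1 of 14 rose (6.46% of all genes) and 1 fell (4.29%), with a median of 0.01. Plk2 rose by 0.49 (adjusted p = 0.0362) and Btg2 fell by 0.98 (adjusted p = 0.0443). Trp53 itself had a change of 0.13 (adjusted p = 0.354). In the MYC list 1 of 13 rose, against 6.46% of all genes, with a median of 0.17. Mxd4, which opposes MYC at its target sites, rose by 0.65 (adjusted p = 0.0107).

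**Figure D5:**
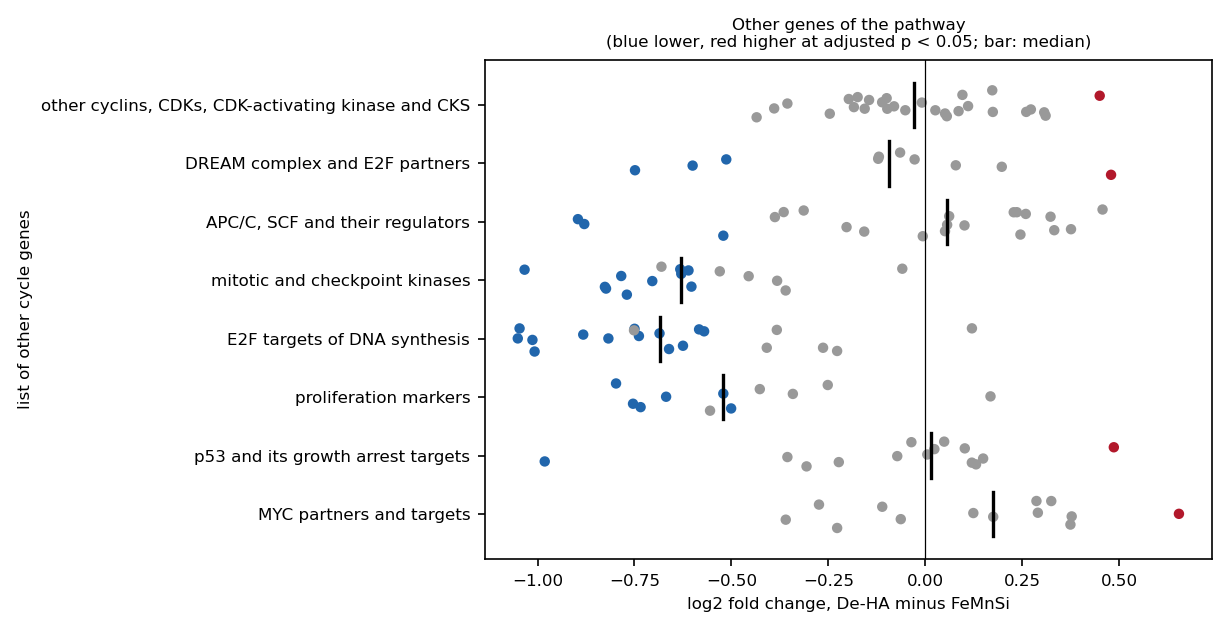
Log2 fold change (x axis) of each tested gene in 8 lists of other cell cycle genes, with red points higher and blue points lower at adjusted p under 0.05 and a black bar at the median. The kinase, DNA synthesis and proliferation lists have medians of -0.63, -0.69 and -0.52, and the other 5 lie between -0.09 and 0.17.

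Across the arrays, probes well above background made up 63.5% to 74.4% of each array, no spot was saturated, and the log2 signals of any pair of arrays correlated at 0.984 to 0.998. Markers of the osteoblast lineage were well above background on every array (13 of 13), and their summed signal was 257761 to 288000 on De-HA and 200648 to 228039 on FeMnSi; 5 of 13 rose, by 0.56 to 0.85. Smooth muscle markers summed to 60757.8 to 64958.1 and 24299.3 to 32760, and 5 of 7 rose. For these marker lists too, 6.46% of all genes passed higher and 4.29% lower. Macrophage markers (5 or 6 of 9 above background) summed to 2629 to 2940 and 1972 to 2784, and of 5 tested 2 rose and 1 fell. Endothelial markers (3 or 4 of 9) summed to 580 to 652 and 458 to 471, and 2 of 3 tested rose. Adipocyte markers (4 or 5 of 8) summed to 189 to 219 and 230 to 263; of 5 tested Fabp4 alone passed, and it fell by 1.99 (adjusted p = 0.0017). Cdh5, Emcn, Erg, Tek and Tie1 among endothelial, Cx3cr1, Mrc1 and Tyrobp among macrophage, and Adipoq, Cidec and Lep among adipocyte markers were above background on no array. These lists moved between the same groups as the cycle genes, and their part in the cycle results was not tested; in bulk samples, fewer cells of a kind and less RNA per cell cannot be told apart. Under quantile normalization, median scaling and the series matrix the median change of all genes was 0.00, 0.02 and -0.01 in place of 0.10, and 43.8%, 37.3% and 41.3% of the genes called were higher in place of 60.1%; under normexp it was 0.12 and 68.2%.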

How the data were processed

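RNA of 6 MC3T3-E1 samples was hybridised to 1-colour Agilent arrays. The submitters' processing notes name Agilent Feature Extraction 11.0.1.1 as the image software. The spot intensity used, per the file headers, is the authors' processed signal, background-subtracted and detrended within each array. The authors' deposited matrix holds log2 values, and how they were made is not given in the sources used here; all its columns had a median of 5.77, and it served only as an alternative.

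Log2 signals were shifted to each array's 75th percentile of non-control spots and printed with that percentile's mean (9.36) added back. Of 44397 spots 1377 were controls. Spots marked as outliers were left out, spots of a probe were averaged, and 28380 of 39429 probes passed a filter (3 or more of the 6 arrays well above background), less 205 whose spots were marked as outliers on some array. Gene symbols came from RefSeq accessions (GRCm38.p6): 27234 probes carried 1 symbol and 12195 carried none. The brightest of several probes stood for a gene. The number of arrays limits the precision.

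The comparison of De-HA and FeMnSi used limma 3.58.1 (lmFit and eBayes, no trend) in R 4.3.3 over all 15535 genes, with Benjamini-Hochberg adjustment and a threshold of 0.05, read with data.table, version 1.17.8, and drawn with matplotlib 3.10.9. Genes given in full were those past the threshold, those at least 1.5-fold apart without overlap and a fixed set of central genes; from each other list the 3 smallest p past the threshold, with Mki67, Pcna, Mcm2 and Trp53 in every case. The genes and lists were chosen with earlier results of these data known.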

Additional observations from a re-analysis of the deposited data

How the results depend on the processing

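Of the 39 genes 12 passed, of the drivers 7, of the inhibitors 5, of the probes 11 and of the other pathway genes 39. Counts moved by over 1.5 times under several choices. Without the filter on dim probes they were, in that order, 4, 2, 2, 2 and 14, where 2.52% of all genes passed in place of 10.7%. An intensity trend in the fit gave 19 genes, 13 drivers and 21 probes (15.4% of all genes), and normexp on the subtracted signal, added after the data were seen, gave 11 drivers and 22 probes (14.7% of all genes). Median scaling gave 3 inhibitors (7.98% of all genes). A slide term in limma left 1, 1, 0, 1 and 5 (1.16% of all genes). At an unadjusted p under 0.05 the counts with the slide term were 14, 9, 5, 17 and 48, for which the share over all genes was not worked out. Leaving out 1 array gave 1 to 19 genes, 1 to 12 drivers, 0 to 7 inhibitors (6 to 9 at an unadjusted p under 0.05), 0 to 23 probes and 5 to 54 other pathway genes. The 19 genes came without FeMnSi 1, where each group lay on its own slide. With the replicate block 6, 3, 3, 3 and 23 passed (4.46% of all genes); samples of the same number did not deviate together (r = 0.01, -0.11 and 0.12), so the numbers are not taken as pairs. Directions reversed for Ccnd3 (-0.073 by quantile normalization, -0.0079 by median scaling and -0.074 in the series matrix), Cdk4 (-0.040 and -0.034 by quantile normalization and in the matrix), E2f4 and Rbl2 (-0.014 and -0.032 by median scaling), Cdkn1a (0.025 by the mean of its probes) and Rb1 (0.13 with a slide term, and 0.13 on slide 1 alone). Without 1 array Cdkn2c ranged from -0.11 to 0.022 and Myc from -0.039 to 0.24. The causes were not tested, except that slide 1 alone leaves 1 FeMnSi array. A planned normexp on median signals was set aside because its fitted background mean was implausible on 1 array. It was -475.5 on FeMnSi 3, against 4.56 to 6.02 on the other arrays. Depth is limited for Cdkn2a and Cdkn2b, which were at or near background.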
